A study of Mus musculus with 3 samples.

Results

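The imprinted genes of the mouse were described here as a set of 38 gene symbols, 31 coding genes and 7 long noncoding RNAs, that lie in the known imprinted domains of the genome. They were chosen by name: every transcript model whose symbol was on the list was taken, whatever its code or length. All 38 symbols were found, and they carried 80 of the 50081 transcript models of the table, which names 22426 RefSeq genes in all. The table was assembled for a study of mouse testis that mapped capped RNA 5′ ends with CAGE and polyadenylated 3′ ends with PAS-Seq.

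The study had 3 libraries of total RNA, 1 in each group: CAGE of testes at 10.5 days post partum, CAGE of adult testes and PAS-Seq of adult testes, the last read to 100 nt. All of the testes came from wild-type C57BL/6J mice, with no mutant, treated or crossed group, so the parental origin of a transcript was not measured. Whole testes hold germ cells beside Sertoli, Leydig and other somatic cells, and the models do not say which of these made a transcript. The table gives positions, exon numbers and exon lengths for the series as a whole and no value per library. Library depth is therefore unknown, the ages could not be compared, and every count below is a count of genes or models with no replicate. Of 12 marker genes of germ, Sertoli and Leydig cells, 12 were in the table with a code other than XX, against 62.3% of all RefSeq genes. The markers were chosen with earlier results of these data known, so this count does not independently show what the code means. The markers ran from the meiotic gene Sycp3 and the sperm nuclear proteins Prm1 and Prm2 to Sertoli-cell Sox9 and Leydig-cell Insl3.

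Imprinted genes are expressed mainly from the allele inherited from 1 parent, because a control region was DNA-methylated in the egg or in the sperm lineage. Many domains share a plan in which a long noncoding RNA is made from the allele on which the neighbouring coding genes are silent. In the testis, germ cells have erased the marks they inherited and hold new paternal ones, while somatic cells keep the parental pattern.

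The models were of 2 kinds. RefSeq-derived models, 69 of the 80, carried a RefSeq accession, and assembled models, the other 11, carried a name beginning with CUFF. Every model had, in addition, a code starting with NM, NR or XX, whose meaning the sources used here do not give. Among the imprinted genes' 69 RefSeq-derived models, 48 of the 55 with an NM accession were coded NM and 10 of the 14 with an NR accession were coded NR. The code XX was carried by 7 of the models with NM accessions and 2 of those with NR accessions. The remaining 2, Dlk1 NR_033813 and Gnas NR_003258, had NR accessions and the code NM, at genes that also have coding models. In all, 233 NR accessions were coded NM, and 210 of these were at a symbol that also has an NM accession. Whether RefSeq-derived models were kept without evidence of transcription in testis is not stated, so the presence of a model was not read as expression.

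At least 1 model with a code other than XX was held by 30 of the 38 imprinted genes (78.9%, exact 95% interval 62.7 to 90.4), against 62.3% of all 22426 RefSeq genes. Without microRNA, snoRNA, olfactory and vomeronasal receptor symbols, the share of all genes was 68.2%, which is inside the interval of the imprinted genes. The 8 imprinted genes with XX models only were Kcnq1ot1, Phlda2, Slc22a3, Rtl1, Mirg, Magel2, Mkrn3 and Peg12. Snrpn and Gnas had models of both kinds. By class, 25 of 31 imprinted coding genes (80.6%) and 5 of 7 imprinted noncoding RNAs (71.4%) had a code other than XX. The corresponding shares of all genes were 69.9% of 18890 coding and 44.8% of 1409 noncoding symbols. Exon number divided the imprinted genes more than class did. Of the 10 with single-exon models only, 5 had a code other than XX, as did 549 of 1098 such genes in all, the same share. Of the 28 with a multi-exon model, 25 had one (89.3%), against 69.2% of 19201 in all. The genes with XX models only were therefore 5 single-exon genes and 3 multi-exon genes, which were Phlda2, Slc22a3 and Mirg.

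**Figure D1:**
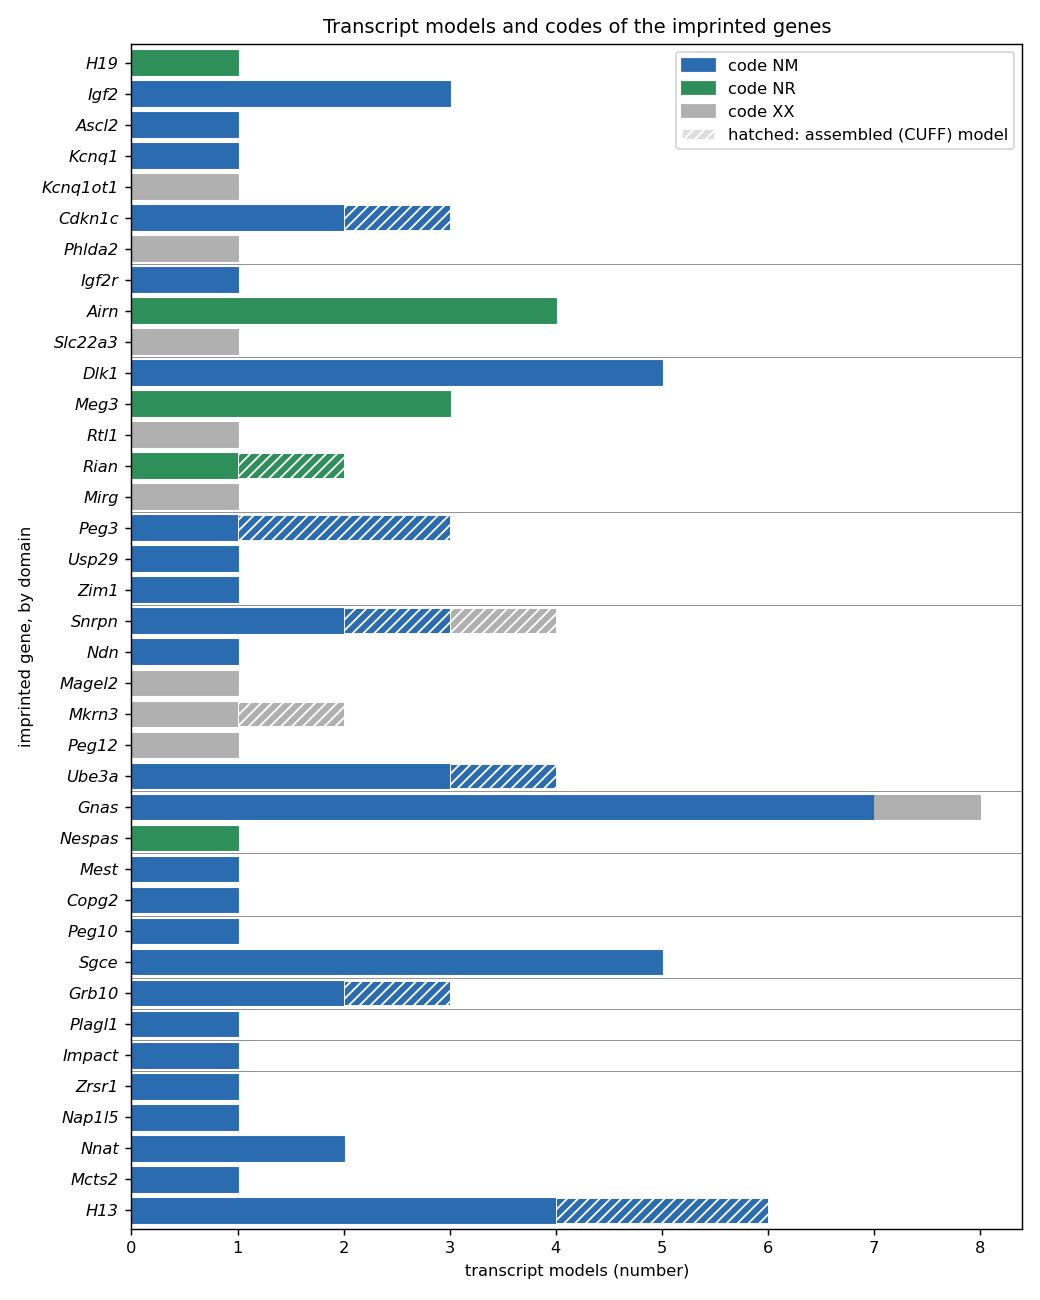
Number of transcript models (horizontal axis) of each imprinted gene (vertical axis, grouped by domain), coloured by code, with assembled CUFF models hatched. Gnas has the most models with 8 and H13 follows with 6, and the 8 genes drawn wholly in grey have XX models only.

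Of the features counted, antisense overlap showed the widest gap, in percentage points, between the imprinted genes and all genes. An exon of 13 of the 38 genes (34.2%, 19.6 to 51.4) overlapped an exon on the other strand by at least 1 bp, against 13.2% of all genes. With introns included, 18 of 38 overlapped a transcript on the other strand (47.4%, 31.0 to 64.2), against 19.0% of all genes. Both partners of several pairs are in the set (Kcnq1 and Kcnq1ot1, Igf2r and Airn, Gnas and Nespas, Mest and Copg2), so these genes are not independent of each other. The genes were listed by name and many of the pairs are well known, so no test was made of the difference. A start within 500 bp head-to-head of a start on the other strand was found for 5 genes (13.2%, 4.41 to 28.1), against 11.3% of all genes, which is close to the background.

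The imprinted genes had more than 1 start in 9 of 38 cases (23.7%, 11.4 to 40.2), counting starts within 50 nt as 1, against 26.7% of all genes. More than 1 end was found for 7 genes (18.4%, 7.74 to 34.3), against 23.0% of all genes. Both shares were near the background when assembled models were counted. Among RefSeq-derived models alone the order was the other way: 6 imprinted genes had more than 1 start (15.8%, 6.02 to 31.3), against 6.51% of all genes, and 5 had more than 1 end (13.2%, 4.41 to 28.1), against 3.24% of all genes. Assembled models bore the symbol of 8 imprinted genes (21.1%, 9.55 to 37.3), against 28.5% of all genes. They extended an imprinted gene past its RefSeq end by over 50 nt in 2 cases, Peg3 and Mkrn3 (5.26%, 0.644 to 17.7), against 7.56% of all genes. None started over 50 nt upstream of a RefSeq start: 0 of 38, which allows a share of up to 7.89% (3 counts of 38, where the exact interval reaches 9.25%), against 10.5% of all genes. These counts took only assembled models that bear the gene's own symbol. CUFF.21374.2, named for Tsga13, holds the Copg2 introns and begins upstream of the Copg2 start, but was not counted. Assembled models at Meg3 and Mirg that are named for a microRNA were left out likewise. CUFF models with no gene symbol overlapped 4 imprinted genes on the other strand (10.5%, 2.94 to 24.8), against 6.58% of all genes. There were 8 such models, each on the strand opposite to the imprinted gene and each coded XX. Nearly all CUFF models with no gene symbol carried this code, with XX in 12086 models and NM in 2. The code therefore does not set these 8 models apart. Their strand has no such background, because it was not counted over all genes. An assembled model on the gene's strand can carry the gene's symbol, as CUFF.22800.1 does inside Peg3 intron 2. A single exon was found in 4 of the 8 models, and 7 lay wholly inside the gene, the exception being CUFF.22801.2 at Usp29. The sources used here do not say how the strand of assembled models was set, and a single exon has no splice site from which to read it.

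**Figure D2:**
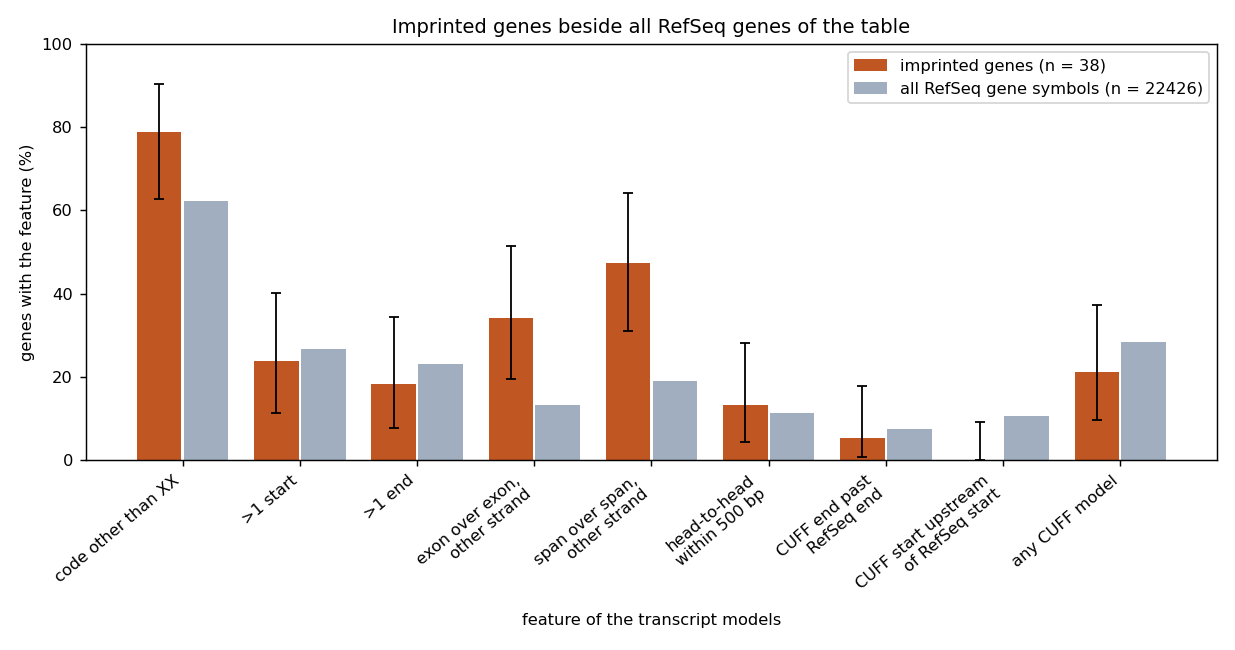
Share of genes (vertical axis, percent) with each feature of the transcript models (horizontal axis) for the 38 imprinted genes (orange, with exact 95% intervals) and for all 22426 RefSeq genes (grey). Antisense overlap of exons (34.2% and 13.2%) and of spans (47.4% and 19.0%) shows the widest gaps, whereas starts, ends and head-to-head partners lie close together.

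The region of H19, Igf2, Kcnq1 and Cdkn1c on chromosome 7 (149761437 to 150688429, mm9, 927.0 kb) held 38 models. Of its 18 RefSeq symbols, 10 had a code other than XX, against 62.3% of all genes, and 2 of the others were microRNAs. H19, a noncoding RNA of the maternal allele that competes with Igf2 for shared enhancers, had 1 model coded NR with a single exon of 2615 nt (149761437 to 149764051, minus strand). The microRNA Mir675 lay inside that exon. Its neighbour Igf2, the fetal growth factor made from the paternal allele, had 3 models coded NM. These had 3 starts (149846940, 149844709 and 149843386) over 3554 bp and shared an end at 149836673, which lay 72622 bp from the H19 start. Mir483 lay in intron 2 of Igf2. Igf2as, the antisense RNA, was coded XX and started 889 bp head-to-head from the middle Igf2 start. It overlapped the longest Igf2 model by 1343 bp, of which 98 bp were exon over exon. Ascl2, a transcription factor needed for the placenta, had 1 model of 3 exons coded NM.

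The Kcnq1 domain had an antisense pair in which the coding partner was coded NM and the noncoding partner XX. Kcnq1, a potassium channel, had 1 model of 16 exons over 319789 bp (150293159 to 150612947, plus strand). Kcnq1ot1, the paternal RNA that silences the domain, had a single exon of 83437 nt (150399016 to 150482452, minus strand). It started in Kcnq1 intron 11, 189293 bp downstream of the Kcnq1 start, and covered 1 Kcnq1 exon, with 121 bp of exon overlap. Also in intron 11 and on the strand of Kcnq1ot1 were CUFF.24855.1 and CUFF.24855.2, of 3 and 2 exons and 1497 and 1361 nt. They started 35647 and 34949 bp upstream of the Kcnq1ot1 start, and both ended 26228 bp upstream of it, so neither overlapped it. CUFF.24843.1, a single exon of 492 nt, lay antisense in Kcnq1 intron 1. Cdkn1c, an inhibitor of cyclin-dependent kinases, had 3 models coded NM. Its assembled model CUFF.24731.2 had 2 exons and 969 nt and started 1653 bp inside the gene, with the RefSeq end. Phlda2, which restrains placental growth, had 1 model of 2 exons and 737 nt, coded XX.

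At Igf2r on chromosome 17, the noncoding partner was not coded XX. Igf2r, the receptor that clears Igf2 from the cell surface, had 1 model of 48 exons coded NM (12875272 to 12962572, minus strand). Airn, the paternal antisense RNA that silences it, had 4 RefSeq-derived models coded NR. All 4 started at 12934177 on the plus strand, in Igf2r intron 2 and 28395 bp downstream of the Igf2r start. They ended at 3 positions over 44327 bp, with spans of 74247, 88813 and 118574 bp, and their spliced lengths were only 413 to 1399 nt. Airn shared 28396 bp of span with Igf2r and 0 bp of exon. All 4 Airn models are spliced, and their introns run across the first Igf2r exons. Kcnq1ot1 is instead modelled as a single exon, so the exon overlaps of these RNAs depend on how each is modelled. Mas1, a G-protein-coupled receptor gene with 3 models coded NM, overlapped the far end of the longest Airn model by 18880 bp, again with 0 bp of exon. A model of 1039 nt named Gm7162 and coded XX lay antisense in Airn intron 1. Slc22a3, an organic cation transporter that Airn silences in placenta, had 1 model of 11 exons coded XX. Antisense to it lay CUFF.10953.1 (578 nt, of which 568 bp over exon 11) and CUFF.10954.1 (1571 nt, 100 bp over exons).

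**Figure D3:**
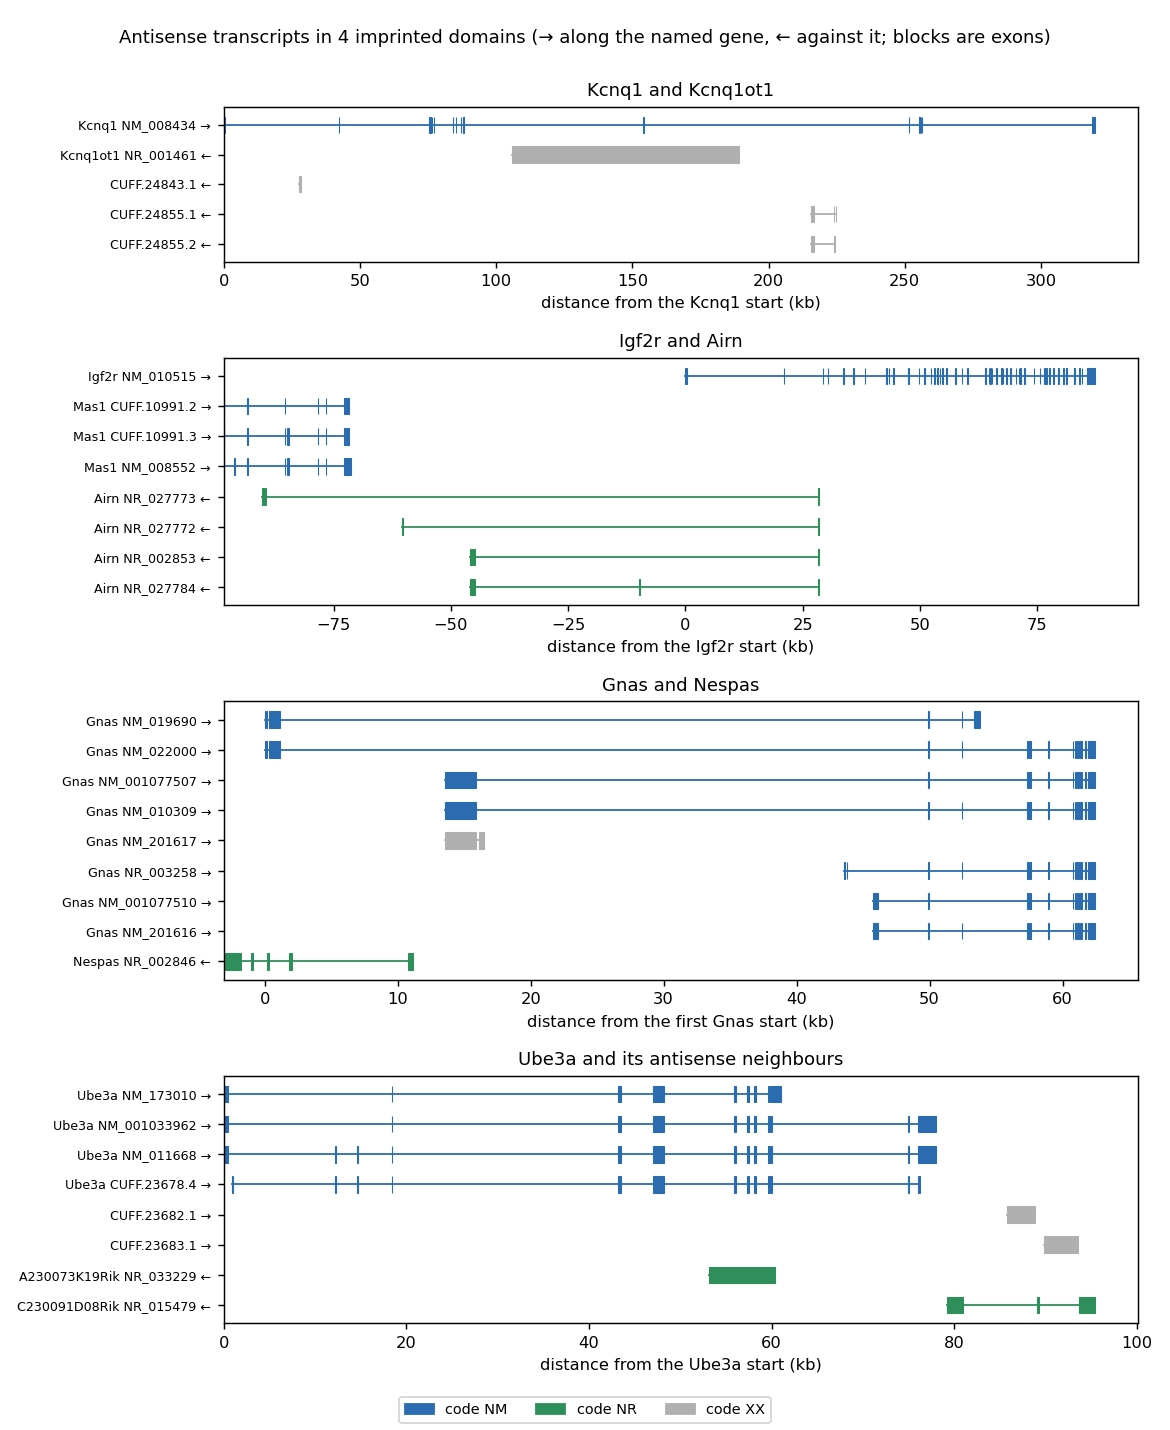
Exons (blocks) and introns (lines) of the transcript models at Kcnq1, Igf2r, Gnas and Ube3a, by distance from the start of the named gene in kb, with 1 model per row coloured by code. The antisense RNAs Airn, Nespas and A230073K19Rik are coded NR and Kcnq1ot1 is coded XX. The exons of the spliced Airn models overlap no Igf2r exon, but their introns cross the first Igf2r exons.

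The Dlk1-Meg3 region on chromosome 12 (110691033 to 110987667, 297.0 kb) was the densest, with 77 models and 65 RefSeq symbols. Of these symbols 57 were microRNAs, 56 of them on the plus strand and 35 outside every gene of the set. All 57 were coded XX, but so were all 595 microRNA symbols of the table (0.0% with another code). Of the 65 symbols, 4 had a code other than XX, against 62.3% of all genes: Dlk1, Meg3, Rian and the small RNA AF357359. Most of the others were the 57 microRNAs. Dlk1, a transmembrane protein related to Notch ligands and made from the paternal allele, had 5 models coded NM with 2 starts 632 bp apart and 1 end. Meg3, the first of a row of noncoding RNAs made from the maternal allele, followed 77660 bp after Dlk1. Its 3 models were coded NR, with 2 starts 4402 bp apart and 2 ends 3129 bp apart. Their spliced lengths were 11410, 11422 and 1913 nt, because the 2 long ones end in an exon of 9961 nt. An assembled model named for Mir770, CUFF.6161.6, was spliced like Meg3: 4 of its 4 introns were Meg3 introns and it ended where the longest Meg3 model ends. It had 5 exons and 968 nt, started 8063 bp downstream of the Meg3 start and was coded XX. A further Mir770-named model, CUFF.6161.4, was a single exon of 1569 nt that overlapped Meg3 exons by 1145 bp.

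Rian, which carries snoRNAs and microRNAs in its introns, started 8540 bp past the start of Rtl1 and had a RefSeq-derived model of 21 exons and 3579 nt. Its assembled model CUFF.6158.1 kept the same start within 2 nt and the same end but had 20 exons and 4436 nt, because intron 13, of 855 nt, was retained. Inside that intron lay AF357359, a small RNA of 30 nt and the only small RNA of the region coded NR. Both Rian models were coded NR. Mirg, a microRNA host, began 73270 bp after the end of Rian and had 1 model of 8 exons and 1299 nt coded XX. Another 3 assembled models overlapped Mirg under the name of Mir410: CUFF.6164.2, CUFF.6164.3 and CUFF.6164.4 had 6, 6 and 7 exons and 1131 to 1313 nt. They started 3878 bp downstream of the Mirg start and had its end. In that order, 2 of 5, 3 of 5 and 3 of 6 of their introns were Mirg introns, and the rest were not. All were coded XX. The symbols of these models are those of a microRNA inside the host, so a search by the host's name alone does not find them.

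**Figure D4:**
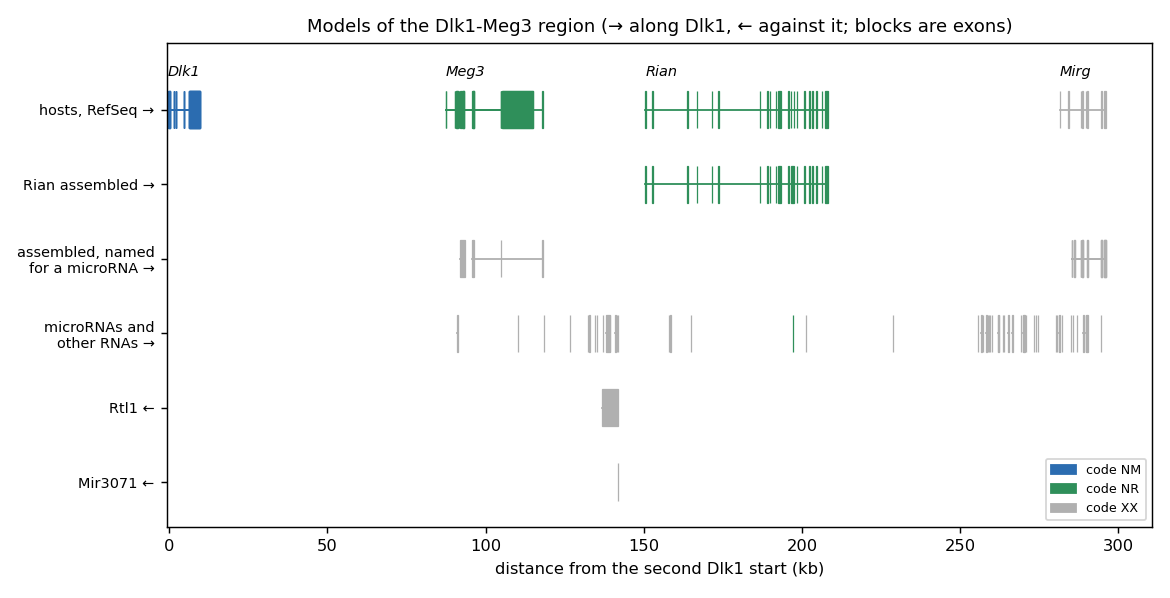
Transcript models of the Dlk1-Meg3 region by distance from the downstream Dlk1 start in kb, in rows for RefSeq hosts, the assembled Rian model, assembled models named for a microRNA, microRNAs and other small RNAs, and the minus-strand models Rtl1 and Mir3071. Colour gives the code: Dlk1 is NM, Meg3 and Rian are NR, and Rtl1, Mirg and all 57 microRNAs are XX.

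Rtl1, a gene derived from a retrotransposon and made from the paternal allele, had a single exon of 5235 nt on the minus strand (110828379 to 110833613), coded XX. On the other strand of that exon lay 6 microRNAs of the maternal allele, Mir431, Mir433, Mir127, Mir434, Mir432 and Mir136, and the noncoding RNA 6430411K18Rik of 1317 nt. Because each of these hairpins lies wholly within the Rtl1 exon, its microRNAs are complementary to the Rtl1 transcript, and several are known to guide its cleavage. The mature sequences are shown because that complementarity is the sequence relation in the domain. They are from RefSeq (GRCm38.p6), 5′ to 3′, with the seed (bases 2 to 8) in capitals.
miR-431-5p: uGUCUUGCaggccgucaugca
miR-431-3p: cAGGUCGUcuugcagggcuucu
miR-433-5p: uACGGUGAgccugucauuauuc
miR-433-3p: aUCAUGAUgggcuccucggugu
miR-127-5p: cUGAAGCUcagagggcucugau
miR-127-3p: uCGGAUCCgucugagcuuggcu
miR-434-5p: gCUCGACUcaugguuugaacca
miR-434-3p: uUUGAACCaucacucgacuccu
miR-432: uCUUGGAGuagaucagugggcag
miR-136-5p: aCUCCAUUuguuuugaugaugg
miR-136-3p: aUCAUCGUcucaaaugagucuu

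The hairpin of Mir136 (110833537 to 110833598, plus strand) lies inside that of Mir3071 (110833528 to 110833607, minus strand), which is read from the strand of Rtl1. Their mature sequences mirror each other: miR-136-5p and miR-3071-3p are complementary over 20 nt, and miR-136-3p and miR-3071-5p over 19 nt. The RefSeq sequences of the minus-strand hairpin are shown beside the pair above, with seeds again in capitals, because their seeds differ from those of miR-136.
miR-3071-5p: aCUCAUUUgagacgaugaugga
miR-3071-3p: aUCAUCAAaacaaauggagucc

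Across the region 55 of the 57 microRNA symbols matched RefSeq mature sequences. They had 102 entries, in which miR-3070-5p appears under both Mir3070a and Mir3070b and was counted once. The distinct sequences had 94 seeds, and 14 of them fell into 7 pairs with a shared seed. None of the 11 sequences antisense to Rtl1 was in such a pair. A pair can join microRNAs of different hosts, as in the following 2, where miR-370 lies in Rian and miR-410 in Mirg, whereas miR-1193 and miR-494 lie between those genes.
miR-370-5p: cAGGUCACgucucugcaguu
miR-1193-3p: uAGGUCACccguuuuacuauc
miR-410-5p: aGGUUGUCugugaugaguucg
miR-494-5p: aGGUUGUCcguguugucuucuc

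Inside the imprinted genes as a whole lay 26 microRNA symbols, 20 on the gene's strand and 6 on the other. Mirg held 10, Rtl1 7, Rian 3, Meg3 2, and H19, Igf2, Mest and Usp29 1 each. All 26 were coded XX, as was every other microRNA symbol of the table.

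The Peg3 domain on chromosome 7 (6628154 to 6919931, 292.0 kb) had 3 imprinted genes, all coded NM, and the longest 3′ extension of the set. Peg3, a zinc finger protein of the paternal allele, had a RefSeq-derived model of 9 exons and 6624 nt. Its assembled model CUFF.22798.1 had the same 9 exons and 8 introns and ran 2047 nt past the RefSeq end, so that the last exon measured 7819 nt, against 5772 nt in RefSeq. A further model, CUFF.22800.1, was a single exon of 1791 nt inside intron 2. Peg3as, an antisense RNA of 865 nt coded NR, lay within the last Peg3 exon (6659471 to 6660335, plus strand). Usp29, a ubiquitin-specific protease that shares the Peg3 control region, started 322 bp from Peg3 on the other strand and ran for 236480 bp in 8 exons. Its tail overlapped Zim3, coded NR, by 11535 bp of span and 2582 bp of exon. CUFF.22801.2, coded XX, had 6 exons whose 5 of 5 introns were Zim3 introns, and overlapped Usp29 by 2619 bp of exon. Within Usp29 intron 2 lay Mir3099 and, on the other strand, the single exon CUFF.22802.1 of 440 nt. Zim1, a zinc finger gene of the maternal allele, had 1 model of 8 exons and 3501 nt.

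The Snrpn-Ube3a domain on chromosome 7 (66484120 to 69609396, 3130 kb) had 48 models. Of its 25 RefSeq symbols, 9 had a code other than XX, against 62.3% of all genes. Another 10 of the 25 were microRNAs, which were coded XX throughout the table. Snrpn encodes a spliceosomal protein and is made from the paternal allele. Its 4 models had 4 starts over 137488 bp and, within 50 nt, 1 end. The RefSeq-derived models started at 67285105 and 67242494, far upstream of Snurf, the gene with which Snrpn shares its exons, whose start was at 67150042. The assembled models started downstream of the Snurf start instead. CUFF.23671.2 began 1581 bp downstream of it with a first exon of 641 nt, and CUFF.23671.1 began 2425 bp downstream of it with a first exon of 126 nt. In each, 8 of 9 introns were shared with Snurf and the first was not. Both ended 41 nt past the RefSeq end, yet CUFF.23671.1 was coded NM and CUFF.23671.2 XX. Facing them, CUFF.23672.1 started 119 bp from CUFF.23671.2 on the plus strand, with 2 exons and 421 nt, coded XX. It lay within the first intron of Snurf and ended 212 bp before the Snurf start, without exon overlap.

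The single-exon genes of the same domain divided by code. Ndn, which encodes necdin of the MAGE family, was coded NM (1651 nt). Magel2, a related MAGE gene 27052 bp from Ndn, was coded XX (4662 nt), as were the makorin ring finger gene Mkrn3 and Peg12. Mkrn3 nevertheless had an assembled model, CUFF.23686.1 of 3385 nt, that began 22 nt upstream of RefSeq and ended 816 nt past it. Between Snrpn and Ube3a, the noncoding RNA Ipw and the snoRNA Snord116l1 were coded XX, whereas D7Ertd715e (3 exons, 2193 nt) and Snord64 were coded NR. Snord64 lay inside an assembled single exon of 2374 nt that carried its name and was coded XX.

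Ube3a encodes a ubiquitin ligase that neurons make from the maternal allele and that other cells make from both. It had 4 models coded NM, with 2 starts 911 bp apart and 3 ends over 16909 bp. The shortest RefSeq-derived model, NM_173010, ended 16909 bp short of the other 2. The assembled CUFF.23678.4 had 13 exons and 3024 nt, began 909 bp inside the gene, ended 1693 nt short and had 1 intron not in RefSeq. On the other strand A230073K19Rik, a single exon of 7288 nt coded NR (66537249 to 66544536), overlapped NM_173010 by 1132 bp of exon and the other 3 models by 746 bp each. Further downstream, C230091D08Rik, of 3 exons and 3708 nt and also coded NR, faced Ube3a tail to tail, and their ends lay 1197 bp apart. The single exons CUFF.23682.1 (3066 nt) and CUFF.23683.1 (3772 nt), coded XX, lay on the strand of Ube3a 7838 and 11861 bp past its end, within C230091D08Rik introns.

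Gnas on chromosome 2 (174109821 to 174172243) had the most models of the set, with 8, and no assembled model. It encodes the stimulatory G-protein alpha subunit and, from upstream starts, larger and neuroendocrine proteins of either parental allele. Its 4 starts lay at 0, 13539, 43594 and 45769 bp from the most upstream, and its 3 ends over 45940 bp. The code was NM in 7 models, including the noncoding accession NR_003258 at the third start. It was XX in NM_201617, a model of 2 exons and 2731 nt at the second start that ends 45940 bp short. Nespas, the paternal antisense RNA, had 5 exons and 2248 nt and was coded NR. It started 2423 bp upstream of the second Gnas start on the other strand and crossed the first start, overlapping Gnas by 11117 bp of span and 111 bp of exon. Each of the 2 Gnas models from the most upstream start had that exon overlap.

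On chromosome 6, Mest and Copg2 met tail to tail. Mest, a hydrolase-like protein of the paternal allele, had 1 model of 12 exons coded NM and held Mir335 in intron 2. Copg2, a coatomer subunit, had 1 model of 24 exons coded NM, and the 2 genes overlapped by 47 bp. An assembled model named for the testis gene Tsga13, CUFF.21374.2, joined Copg2 to its upstream neighbour. Of its 26 introns, 23 were the 23 Copg2 introns and 2 were among the 7 RefSeq Tsga13 introns. RefSeq Tsga13 ended 221 bp before the Copg2 start. The joined model had 27 exons and 3753 nt, was coded NM and ended 219 bp short of the Copg2 end, so it did not reach Mest, from whose end it stopped 173 bp away.

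Peg10, a retrotransposon-derived gene, and Sgce, which encodes epsilon-sarcoglycan, are paternally expressed from a shared control region. They started 102 bp apart on opposite strands of chromosome 6, the closest head-to-head pair of the set. Peg10 had 1 model of 2 exons and 6666 nt, and the 5 Sgce models of 11 or 12 exons shared 1 start and 1 end. All 6 were coded NM. Grb10, an adaptor that dampens insulin receptor signalling, had 3 models coded NM with 3 starts and 1 end. The second start was 9449 bp downstream of the first. The assembled CUFF.3359.2 began another 1742 bp downstream with a first exon of 392 nt, and its first intron was the single intron not in RefSeq. Plagl1, a zinc finger transcription factor (6 exons, 5261 nt), and Impact, a translational regulator (11 exons, 3432 nt), each had 1 model coded NM and no antisense partner.

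**Figure D5:**
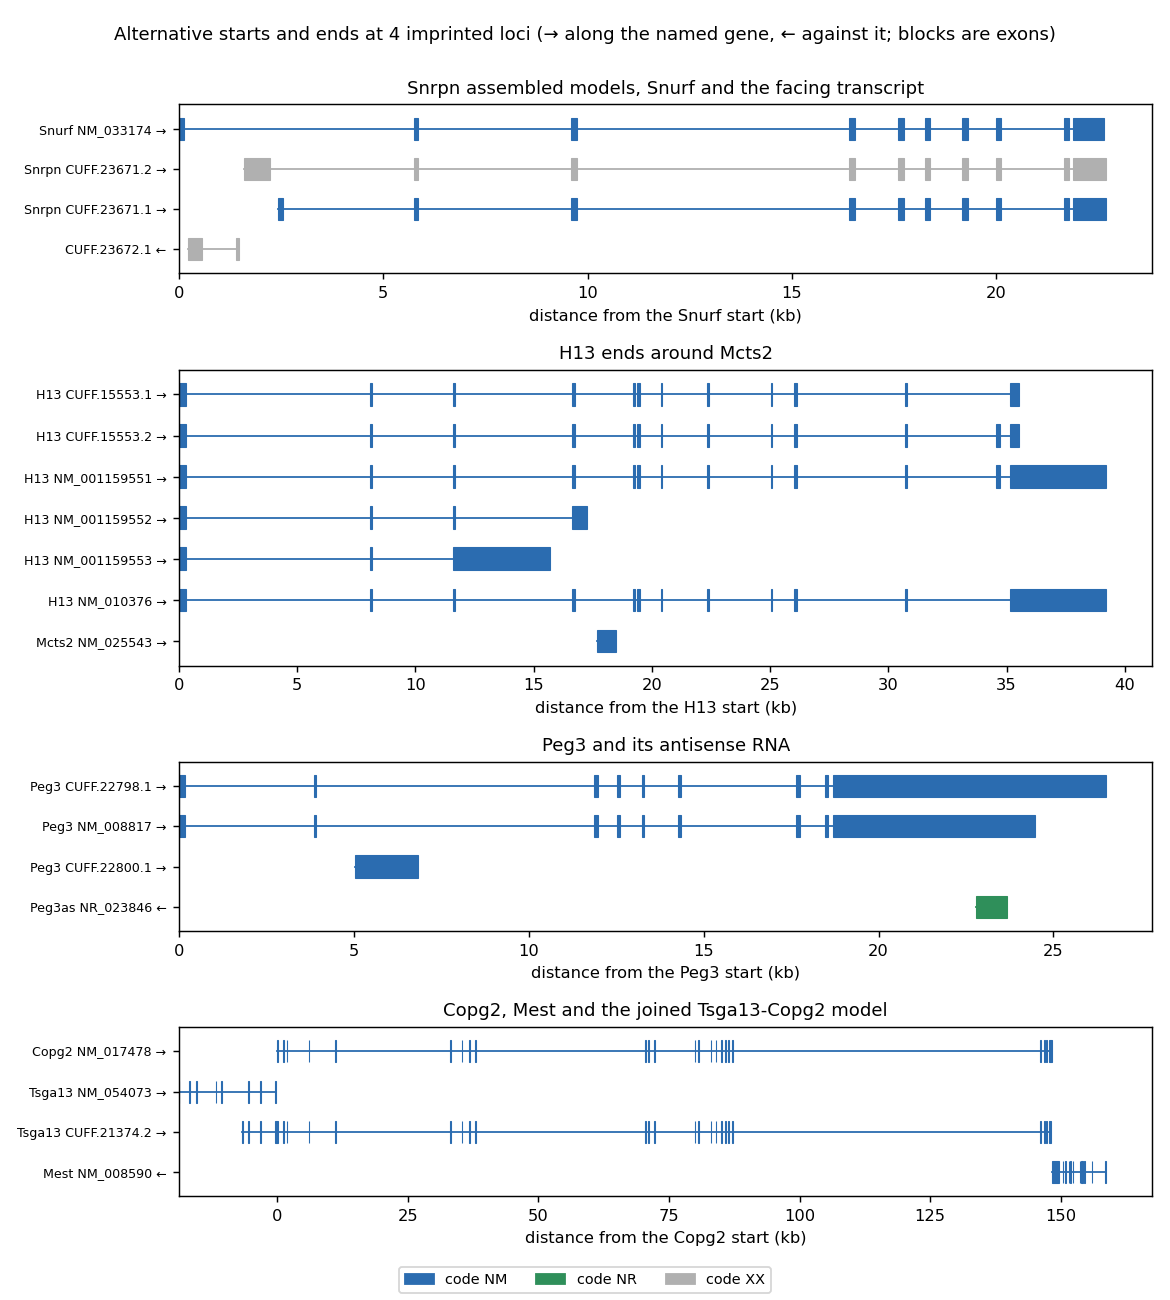
Exons (blocks) and introns (lines) of the transcript models at Snrpn, H13, Peg3 and Copg2, by distance from the start of the gene named on each axis in kb, with 1 model per row coloured by code. The panels show the assembled Snrpn starts 1581 and 2425 bp inside Snurf, the H13 ends on either side of Mcts2, the Peg3 end 2047 nt past RefSeq and the Tsga13 model that runs through the Copg2 exons.

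The set also held 4 paternally expressed genes nested in introns of a host: Zrsr1 in Commd1 intron 1, Nap1l5 in Herc3 intron 22, Nnat in Blcap intron 1 and Mcts2 in H13 intron 4. All 4 were coded NM, as were the 4 hosts. The first 3 lie on the strand opposite to their host and Mcts2 lies on the same strand. Zrsr1, a splicing factor gene, had a single exon of 4492 nt. An assembled Commd1 model, CUFF.3437.2, started inside Zrsr1, 1054 bp from the Zrsr1 start and 9225 bp downstream of the RefSeq Commd1 start. It had 2 exons and 946 nt, overlapped Zrsr1 by 409 bp of exon, and its intron was not a RefSeq Commd1 intron. Nap1l5, a relative of nucleosome assembly proteins, had a single exon of 1894 nt. Nnat, which encodes neuronatin, had 2 models of 1129 and 1210 nt with 1 start and 1 end. Neither had exon overlap with its host.

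Mcts2, a retrogene of 795 nt, stood between the ends of its host. H13, which encodes signal peptide peptidase, had 6 models coded NM with 1 start and 4 ends over 23522 bp. The RefSeq-derived NM_001159553 and NM_001159552 ended 2002 and 441 bp upstream of the Mcts2 start (152512884), and the other 4 models ran through it. The assembled CUFF.15553.1 and CUFF.15553.2 had the introns of the long RefSeq models but ended 3676 nt earlier, with a last exon of 371 nt, against 4047 nt in RefSeq.

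Promoter windows from RefSeq, 250 bases before to 50 after a start, were matched by symbol for 30 of the 38 genes, 43 windows in all. No window was matched for H19, Kcnq1, Cdkn1c, Rtl1, Nespas, Peg10, Sgce and Impact. The hexamer TGCCGC, which the imprint-keeping protein ZFP57 binds when methylated, was searched on both strands. It was in 12 of the 43 windows (27.9%), against 11.6% of all 32851 windows. Windows of the same gene can overlap, as at Mest and Gnas, and each was counted. By gene, the hexamer was in 11 of 30 imprinted genes (36.7%), against 13.1% of all 27025 genes. The 11 were Copg2, Grb10, Igf2, Mcts2, Meg3, Mest, Nap1l5, Nnat, Plagl1, Snrpn and Zim1. Of these, Grb10, Igf2, Meg3, Mest and Snrpn also had windows without it. Because the windows were not placed on mm9, the hexamer was not assigned to any start of the models described above. The imprinted windows were also richer in CpG, with a median observed-to-expected ratio of 0.61, against 0.38 in all windows. Among windows with a ratio of at least 0.6, the hexamer was in 10 of 23 imprinted windows (43.5%), against 24.3% of all 11765. The motif GCCATNTT, bound by YY1 and searched likewise, was in 2 of 43 imprinted windows (4.65%), those of Mkrn3 and Ube3a, against 6.05% of all windows. The windows of 3 of the 4 nested genes hold the hexamer and are shown because these starts lie within introns of a host. Their positions in GRCm38.p6 are chr2:152686898-152687197 (plus strand) for Mcts2, chr6:58907077-58907376 (minus strand) for Nap1l5 and chr2:157559828-157560127 (plus strand) for Nnat. Capitals mark the hexamer, written GCGGCA where it lies on the other strand.
Mcts2: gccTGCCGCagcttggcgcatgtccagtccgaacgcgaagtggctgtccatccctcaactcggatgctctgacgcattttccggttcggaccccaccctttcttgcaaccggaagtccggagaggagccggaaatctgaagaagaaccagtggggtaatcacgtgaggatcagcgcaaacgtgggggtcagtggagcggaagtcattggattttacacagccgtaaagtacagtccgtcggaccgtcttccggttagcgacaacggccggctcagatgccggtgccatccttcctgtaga
Nap1l5: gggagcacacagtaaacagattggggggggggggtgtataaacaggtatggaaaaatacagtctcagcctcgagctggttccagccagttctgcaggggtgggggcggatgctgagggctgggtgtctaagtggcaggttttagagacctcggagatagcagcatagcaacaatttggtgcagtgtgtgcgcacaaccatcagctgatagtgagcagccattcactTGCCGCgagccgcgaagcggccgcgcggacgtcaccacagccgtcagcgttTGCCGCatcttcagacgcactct
Nnat: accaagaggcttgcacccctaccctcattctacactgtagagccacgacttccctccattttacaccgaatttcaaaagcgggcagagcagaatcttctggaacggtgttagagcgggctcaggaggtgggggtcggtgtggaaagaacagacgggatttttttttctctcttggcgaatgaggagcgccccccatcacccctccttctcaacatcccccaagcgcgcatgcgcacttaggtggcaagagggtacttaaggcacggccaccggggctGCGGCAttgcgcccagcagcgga

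Around the imprinted genes, 38 of 40 listed neighbours were found and 24 of these had a code other than XX (63.2%), near the 62.3% of all genes. The 14 with XX models only included Dio3 beyond the Dlk1-Meg3 region, the GABA receptor gene Gabra5 beyond Ube3a, Th near Igf2, and Calcr and Tfpi2 near Peg10. Of 18 genes that set, keep or read imprints, 15 had a code other than XX (83.3%), against 62.3% of all genes. These included the maintenance methyltransferase Dnmt1 (4 models, 3 starts), its recruiter Uhrf1 (4 models, 2 starts), Dnmt3l, the partner of the de novo enzymes (4 models, 4 starts), and the imprint reader Zfp57 (5 models, 3 starts). Ctcf and its testis paralogue Ctcfl, which bind insulators such as that of H19, had 2 models each with codes other than XX. The 3 with XX models only were the de novo methyltransferase Dnmt3a (2 models), Tet3 (4 models) and Dppa3 (1 model). The lists of neighbours and of these 18 genes were chosen with earlier results of these data known.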

How the data were processed

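The analysed data were 1 deposited table, in BED format with 12 columns and no header. Its rows are transcript models, and the sources used here do not say from which libraries these were built. The values that the authors deposited are genome positions (bp) and the number and lengths of exons, with a symbol in column 4 and a code in column 9, and no per-library count, so depth is unknown. Reads were processed with TopHat2 2.0.4 and the build was mm9, per the submitters' processing notes. The sources used here do not say how models were assembled, filtered and coded. Positions were counted from 1. Models were taken by exact symbol. Starts or ends within 50 nt were counted as 1, antisense overlap needed at least 1 bp, and head-to-head starts lay 1 to 500 bp apart. An assembled model with the gene's symbol extended that gene where it passed every RefSeq start or end by over 50 nt. The shares of all 22426 RefSeq symbols were computed the same way. Exact Clopper-Pearson 95% intervals, and the limit of 3 counts for a share of 0, cover counting error over genes only. No p-value was computed: each group has 1 library and the table has no value per library. Mature microRNAs and promoter windows came from RefSeq (GRCm38.p6) by symbol, without chromosome 18, and were not placed on mm9. The counting was tested on simulated data. Every imprinted gene is named, and other genes where they lie in or beside an imprinted gene or on 1 of the 3 lists (neighbouring genes, genes that set, keep or read imprints, testis markers). The genes and lists were chosen with earlier results of these data known. Some neighbours on the list are counted but not named here. Python 3.11.15, SciPy 1.17.1 and matplotlib 3.10.9 were used.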

Additional observations from a re-analysis of the deposited data

How the results depend on the processing

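The 10 counts of imprinted genes or models were recomputed under 26 alternative settings, and 24 of these kept the count within 1.5 times its main value. The 2 others were small counts. With a threshold of 10 nt in place of 50 nt, 1 imprinted gene, Mkrn3, had an assembled start upstream of RefSeq under its own symbol. The main count was 0. With multi-exon models only, 4 assembled models without a symbol overlapped the imprinted genes, against 8 with any exon number. Counts of genes with antisense exons were between 9 and 12, against 13 in the main count, and those with antisense spans between 13 and 16, against 18. With partners coded other than XX only, antisense exons were found for 9 of 38 genes (23.7%), against 7.91% of all genes. Antisense spans were then found for 13 of 38 (34.2%), against 10.3%. For alternative starts and ends, RefSeq-derived models alone turned the order against all genes. They gave 6 of 38 imprinted genes (15.8%), against 6.51%, for starts and 5 of 38 (13.2%), against 3.24%, for ends. For starts, models with a code other than XX only also turned it, with 9 of 38 imprinted genes (23.7%), against 21.0% of all genes. The single table and the unknown depth limit these counts: a gene coded XX is not shown to be silent, and a start or end not in the table is not shown to be unused. No paired analysis was possible because each group has 1 library and the table has no value per library.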
